A study of Mus musculus with 13 samples.

Results

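Collagen chain genes were defined as all genes whose platform symbol reads Col, a type number, the letter a and a chain number, such as Col1a2. Of 45101 probe sets on the array, 82 carried such a symbol, and they covered 42 of the 18193 genes with a single symbol. The 42 genes comprised 11 fibrillar collagens, 8 basement membrane collagens and 23 others. Symbols for Col6a6 and Col28a1 were not matched on the array. Measurements came from 13 untreated mouse samples, each from a different animal and hybridised to its own Affymetrix array. The tumour group held 6 primary medulloblastomas, a cancer of the cerebellum and brainstem, taken from Ptch1(+/-) animals and described as arising through inactivation of Ptch1. The other samples were wild-type. They were 3 preparations of granule neuron precursors of the cerebellum at postnatal day 7 (GNPC), and 4 pieces of embryonic brainstem, from its dorsal side, at E16.5 (DBS). The labels give no strain, no age for the tumour mice, no description of the Ptch1 allele and no method of isolating the GNPC. Tumours with altered Ctnnb1, a further group in the series' design, were not analysed here. The comparisons asked how collagen chain RNA differed between the tumours and each normal tissue, and between the normal tissues.

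Collagens are triple helices of 3 alpha chains, each chain the product of its own gene. Fibrillar collagens such as types I and III form the banded fibres of connective tissue and in the brain are made mainly in the meninges and around blood vessels. Type IV and type XVIII collagens belong to basement membranes, the thin sheets under endothelium and at the surface of the brain. The remaining collagens decorate fibrils, form beaded filaments or short-chain networks, or span the cell membrane, as type XXIII and type XXV do.

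Each array had been scaled by the authors to a common trimmed mean, and array medians lay between 91.3 and 117.5 intensity units. Ptch1 itself read 3453.7 to 11575 in the tumours, 5563.3 to 6972.4 in GNPC and 5569.3 to 6133.5 in DBS. It was called in none of the 3 comparisons, and because the deleted part is not stated it does not check the labels. Summed levels of 6 granule precursor markers were 41070 to 45284 in tumours, 40138 to 44252 in GNPC and 14522 to 19863 in DBS. Summed levels of 10 hindbrain Hox genes were 74 to 998, 123 to 140 and 22618 to 32582. Zic1 alone gave 18249.7 to 21764.5 of the granule precursor sums in tumours and 19701.5 to 20751.9 in GNPC, and the sums hide differences between markers. Atoh1 read 6383.3 to 11733.4 in tumours and 825.7 to 1251.8 in GNPC, and was the 1 marker of the 6 called between them. Neurod1 went the other way, at 7260.5 to 13633.2 in tumours and 15135.6 to 17020.5 in GNPC. Several libraries stood apart. Tumour 1 read 827 for Hoxa2 against 2.4 to 24.6 in the other tumours, and tumour 3 had the highest mural and endothelial marker sums of the tumours. DBS 2 had a log2 ratio of 3′ to 5′ control signal of 2.43 against 1.23 to 1.7 in the other DBS, and DBS 4 had a skeletal muscle marker sum of 2290 against 422 to 932.

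Most fibrillar chains (6 of 9 tested against GNPC and 5 of 9 against DBS) and several other collagen chains were lower in the tumours, and Col18a1 was the 1 chain called higher in tumours, against DBS. A gene was called when its limma adjusted p was under 0.05 and its log2 difference at least 1, on the log2(intensity + 18) scale, where the added 18 understates the fold of dim genes. Of the 42 genes, 27 had a probe set above its array's median in at least 3 of the 13 arrays, the filter for testing. Of those 27, 15 were lower and 0 higher in tumours than in GNPC, beside 14.2% of all 12270 genes tested that were called lower and 6.59% called higher. At an unadjusted limma p under 0.05, with no fold minimum, 19 were lower and 0 higher, and the share of all genes at that threshold is not given here. At an adjusted p under 0.05 with no fold minimum, 18 of the 27 were called, beside 6061 of all 12270 genes in either direction. Against DBS, by the rule with the fold minimum, 15 were lower and 1, Col18a1, was higher, beside 20.9% and 15.5% of all genes. The median log2 difference of the 27 was -1.4 in both comparisons, and that of all genes tested was -0.03 against GNPC and 0 against DBS. With no filter, so that all 42 entered, 15 were called against GNPC (14.9% of all 18193 genes were) and 17 against DBS (26.9%). Col1a1, Col2a1, Col13a1, Col14a1 and Col26a1 passed the filter only through normal samples, as each tumour value was below the lowest array median of 91.3. For these genes the filter itself asked for higher values in normal tissue. The tumour and GNPC values had no overlap in 15 of the 27 genes, and the tumour and DBS values in 12, beside 44.9% and 56.1% of all genes tested. Counted as probe sets, 22 of the 44 that passed the filter were called against GNPC and 26 against DBS, beside 18.5% and 34.7% of all probe sets tested. Both comparisons use the same 6 tumours and are not independent of each other. These were bulk samples, so fewer cells of a collagen-producing type and less RNA per cell cannot be told apart.

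Several markers of cell types that make collagen were also called lower in tumours than in GNPC and than in DBS. Only meningeal and fibroblast markers were called in both directions against DBS. Of 14 meningeal and fibroblast markers, chosen without collagens, 13 passed the filter. In tumours 7 of these were called lower than in GNPC and 0 higher. At an unadjusted limma p under 0.05, with no fold minimum, 10 were lower and 0 higher, and the share of all genes at that threshold is not given here. The summed level of the 14 was 2510 to 8884 in tumours, 8123 to 8873 in GNPC and 4025 to 6741 in DBS. For 13 pericyte and smooth muscle markers the sums were 3251 to 9026, 8118 to 9305 and 6173 to 7512, and 4 of the 8 that passed were lower in tumours than in GNPC and 2 lower than in DBS. For endothelium, with 14 of 15 markers on the array, the sums were 2765 to 5090, 8717 to 8921 and 6459 to 8924, and 7 of the 12 that passed were lower than in GNPC and 6 lower than in DBS. Of all genes tested, 14.2% were called lower than in GNPC and 20.9% lower than in DBS. Against DBS, 5 of the 13 meningeal markers were lower and 2 were higher, beside 15.5% of all genes called higher. These were Islr (log2 difference 1.65 ± 0.35, limma adjusted p = 0.000714) and Mgp (1.79 ± 0.39, adjusted p = 8e-04). Twist1, Anpep, Myh11, Pecam1 and Tie1 from these lists were above the array median on no array. The highest tumour value of each sum was that of tumour 3, but for the meningeal sum this rested on Igf2, which read 5471.8 there and 331.6 to 981.3 in the other tumours. Without Igf2, as examined after seeing the data, the meningeal sum was 3412 in tumour 3 and highest in tumour 6, at 5485, with GNPC at 5188 to 5896 and DBS at 2633 to 3797. Foxd1 alone gave 1213.2, 1513.3 and 2070.7 of the sums of tumours 1, 3 and 6. It read 29.4 to 162.8 in the other tumours and 137.5 to 173.6 in GNPC, so the nearness of tumour 6 to GNPC rested on this gene. Dcn, Lum and Slc6a13 were lower in tumour 3 than in any other tumour. Foxd1, Foxc1 and Crabp2 went the other way, each higher in tumour 3 than in all but 1 of the other tumours. Of 6 bone markers 2 passed the filter, with 0 lower and 1 higher in tumours in each comparison, beside 6.59% and 15.5% of all genes called higher. The 1 was Dmp1, at 92.7 to 214.5 in tumours, 1.2 to 11 in GNPC and 1 to 2.7 in DBS, which passed through tumour arrays alone. The part of these markers in the collagen differences was not tested.

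**Figure D1:**
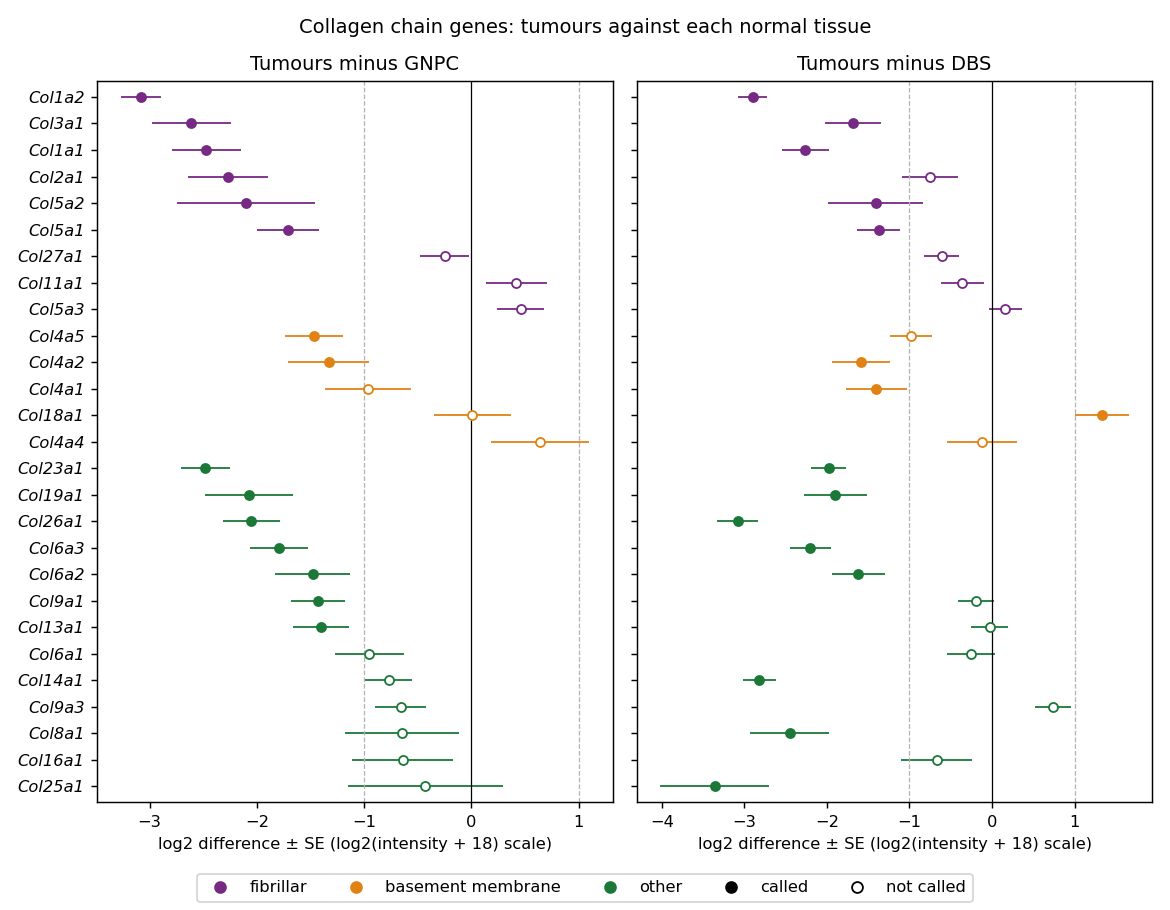
Log2 differences on the log2(intensity + 18) scale with standard errors, tumours minus GNPC at left and tumours minus DBS at right, for the 27 collagen genes that passed the filter. Colours give the class, filled points are called genes and dashed lines mark a log2 difference of 1. Points lie mostly left of 0, and Col18a1 is the 1 filled point right of 0, against DBS.

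Type I collagen is a trimer of alpha 1 chains and an alpha 2 chain, and both genes were lower in every tumour than in every normal sample. Col1a2 in the tumours ran from 244.6 through a median of 338.4 to 465.5 intensity units. Its GNPC values were 3206.5, 2697.3 and 3123.7, and its DBS values 3368, 2717.4, 2671.7 and 2031.9. No tumour came near either tissue. The log2 difference was -3.08 ± 0.19 (SE) against GNPC (8.45-fold lower, limma adjusted p = 1.26e-07) and -2.9 ± 0.18 against DBS (7.48-fold lower, adjusted p = 2.66e-09). Between GNPC and DBS it was 0.18 ± 0.21, which was not called. Col1a1 was dimmer, at 17.3 to 73.7 in the tumours with a median of 47.1. GNPC read 370.1, 212.3 and 385.6, and DBS read 267.8, 440, 235.1 and 187. Again the groups did not overlap, and Col1a1 was 5.52-fold lower than in GNPC (log2 difference -2.47 ± 0.32, adjusted p = 2.46e-05) and 4.8-fold lower than in DBS (-2.26 ± 0.29, adjusted p = 6e-06).

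Type III collagen, a trimer of 1 chain found with type I in soft tissue, was lower as well, with more spread among tumours. Col3a1 read 305.4 to 1338.7 in the tumours with a median of 484.2. GNPC values were 3059.5, 3038.8 and 3688, and DBS values 2385.7, 1863.5, 1520 and 1239.5. Tumour 4, at 1338.7, lay above DBS 4, so tumours and DBS overlapped by that 1 tumour, while tumours and GNPC stayed apart. Col3a1 was 6.1-fold lower than in GNPC (log2 difference -2.61 ± 0.37, limma adjusted p = 5.32e-05) and 3.21-fold lower than in DBS (-1.68 ± 0.34, adjusted p = 0.000401).

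The DNA just upstream of Col1a2 and Col3a1 is shown with that of Col18a1, since these are the fibrillar chains with the largest differences from GNPC and the single chain higher than in DBS. The 250 bases before the annotated start are given 5′ to 3′ on the gene's strand, from RefSeq on GRCm38.p6. They are chr6:4505368-4505617 (+) for Col1a2, chr1:45311288-45311537 (+) for Col3a1 and chr10:77166531-77166780 (-) for the farther upstream of 2 annotated Col18a1 starts. Capitals mark matches on either strand to 3 motifs. The first is the CCAAT box, with the letters of its name. A second is the TATA box, written TATAAA. The last is the GC box, written GGGCGG. No matches overlapped in the windows shown.
Col1a2: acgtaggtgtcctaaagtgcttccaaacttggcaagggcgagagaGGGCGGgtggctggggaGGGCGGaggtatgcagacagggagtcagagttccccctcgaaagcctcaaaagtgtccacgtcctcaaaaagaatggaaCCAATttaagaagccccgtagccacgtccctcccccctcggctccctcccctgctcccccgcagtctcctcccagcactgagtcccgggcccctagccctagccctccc
Col3a1: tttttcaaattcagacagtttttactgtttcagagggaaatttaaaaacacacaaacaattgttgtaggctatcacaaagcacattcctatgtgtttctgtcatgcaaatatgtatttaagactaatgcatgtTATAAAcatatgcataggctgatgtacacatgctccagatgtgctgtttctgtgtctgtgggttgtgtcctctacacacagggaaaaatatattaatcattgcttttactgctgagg
Col18a1: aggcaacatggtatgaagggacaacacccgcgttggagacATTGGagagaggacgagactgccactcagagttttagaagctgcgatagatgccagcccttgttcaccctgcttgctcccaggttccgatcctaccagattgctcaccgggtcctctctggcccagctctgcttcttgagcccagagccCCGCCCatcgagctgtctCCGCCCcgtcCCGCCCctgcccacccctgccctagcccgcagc

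The Col1a2 window held 2 GC boxes and a CCAAT box on its own strand, the Col3a1 window held a single TATA box, and the Col18a1 window held a CCAAT box and 3 GC boxes on the opposite strand. A window before the second Col18a1 start, chr10:77113706-77113955, held none of these letters. Of the 42 collagen genes, 33 had promoter entries, with 36 windows. Entries were lacking for Col12a1, Col14a1, Col1a1, Col22a1, Col26a1, Col2a1, Col4a3, Col5a2 and Col9a3. A GC box was found in 21 of the 36 collagen windows (58.3%) and in 32.7% of 32851 windows of all genes. CCAAT was found in 13 (36.1%, against 33.8%) and the TATA box in 5 (13.9%, against 12.4%). The Gli consensus GACCACCCA, the site of the transcription factors of the hedgehog pathway, was in 0 of 36 and in 0.225% of all windows, both strands searched. A match is a stretch of letters, not evidence of binding, and no match says only that the letters are not in these 250 bases.

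Type V collagen joins type I fibrils and helps set their width, and its chains differed from each other. Col5a1 read 56.1 to 244.6 in the tumours with a median of 129.8. GNPC values were 421.8, 475.1 and 474.8, and DBS values 284.5, 421.8, 362.3 and 377. Every tumour lay below every normal sample. The log2 difference was -1.71 ± 0.29 against GNPC (limma adjusted p = 0.000218) and -1.37 ± 0.26 against DBS (adjusted p = 0.000267). A second Col5a1 probe set gave -1.11 and -1.04, both called, but without this separation. On it the tumours read 93.5 to 280.7 and overlapped GNPC, at 265.4 to 435.9, and DBS, at 226.1 to 401.2. Col5a2 split the tumours: tumours 1, 2, 4, 5 and 6 read 128.7, 295.9, 183.6, 133.2 and 82.8, and tumour 3 read 1793.1. GNPC values were 937.6, 1220.9 and 1045.3, and DBS values 545.5, 715.1, 623.9 and 741. Tumour 3 was above all normal samples and the other 5 were below them. With tumour 3 included, Col5a2 was called lower than GNPC (-2.1 ± 0.64, adjusted p = 0.0133) and lower than DBS (-1.41 ± 0.58, adjusted p = 0.0413). Without it the differences were -2.67 ± 0.28 and -1.98, with both called. The call against DBS ended when tumour 1, 4, 5 or 6, or any DBS sample, was left out, with adjusted p from 0.0595 to 0.0868. It also ended with no filter, no intensity trend, equal array medians or only those groups fitted. Col5a3, another chain of the type, was not called in any comparison (0.46 ± 0.22 against GNPC and 0.16 ± 0.2 against DBS).

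Col2a1, the chain of the collagen of cartilage, also expressed transiently in embryonic neural tissue, was higher in GNPC than in the other samples. GNPC read 188.5, 143.4 and 142.6, the tumours read 9.6 to 55.4 with a median of 12.2, and DBS read 48.4, 15.3, 85.4 and 42.4. GNPC stood clear of both, while tumours and DBS overlapped. Col2a1 was lower in tumours than in GNPC (log2 difference -2.27 ± 0.37, limma adjusted p = 0.000182) and higher in GNPC than in DBS (1.52 ± 0.4, adjusted p = 0.00684). Tumours against DBS gave -0.75 ± 0.34 (adjusted p = 0.0612), which became -1.04 and called (adjusted p = 0.0127) without DBS 2, whose Col2a1 was the lowest of the DBS. The size for this dim gene depended on the added constant: against GNPC it was -3.15 with 1 and -1.41 with 64. Of 9 cartilage markers, 5 (Acan, Matn1, Matn3, Snorc and Epyc) were above the array median on no array. The 1 that passed the filter, Ucma, read 233.6, 404 and 330 in GNPC against 28.3 to 98.6 in tumours and 30.2 to 46.8 in DBS. Col2a1 passed the filter only through the 3 GNPC arrays, and Ucma could not have passed without them. Both therefore had to be above the array median in GNPC, and their sharing of this pattern is no test. The log2 difference of Ucma was -2.44 ± 0.28 for tumours against GNPC (limma adjusted p = 1.06e-05) and 2.58 ± 0.31 for GNPC against DBS (adjusted p = 1.36e-05). Summed over the 9, cartilage markers read 562 to 884 in GNPC, 272 to 457 in tumours and 371 to 451 in DBS. Ucma alone gave 233.6, 404 and 330 of the GNPC sums. Of the dimmer markers, Hapln1 read 21.9 to 123.9 in GNPC and 1 to 17.9 in tumours, and Comp read 8.7 to 50 and 26.2 to 148.1. The part of cartilage markers in the Col2a1 values was not tested.

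Not all fibrillar chains were lower. Col11a1, a partner of type II and type V chains, read 238 to 701.7 in the tumours, 257.5 to 475.6 in GNPC and 506.8 to 870.1 in DBS. Its log2 difference was 0.42 ± 0.28 against GNPC and -0.36 ± 0.26 against DBS, and it was called in neither. Col27a1 gave -0.25 ± 0.23 and -0.61 ± 0.21, though a second probe set gave -0.77 and -1.14, the latter called. In all, 6 of the 9 fibrillar genes that passed the filter were lower than in GNPC and 5 were lower than in DBS. Summed over all 11, fibrillar intensity was 1546 to 3852 in the tumours, 8640 to 9636 in GNPC and 5892 to 7919 in DBS, and the 3 groups did not overlap. Col1a2 and Col3a1 made up most of each GNPC and DBS sum, so the sums largely restate these chains.

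**Figure D2:**
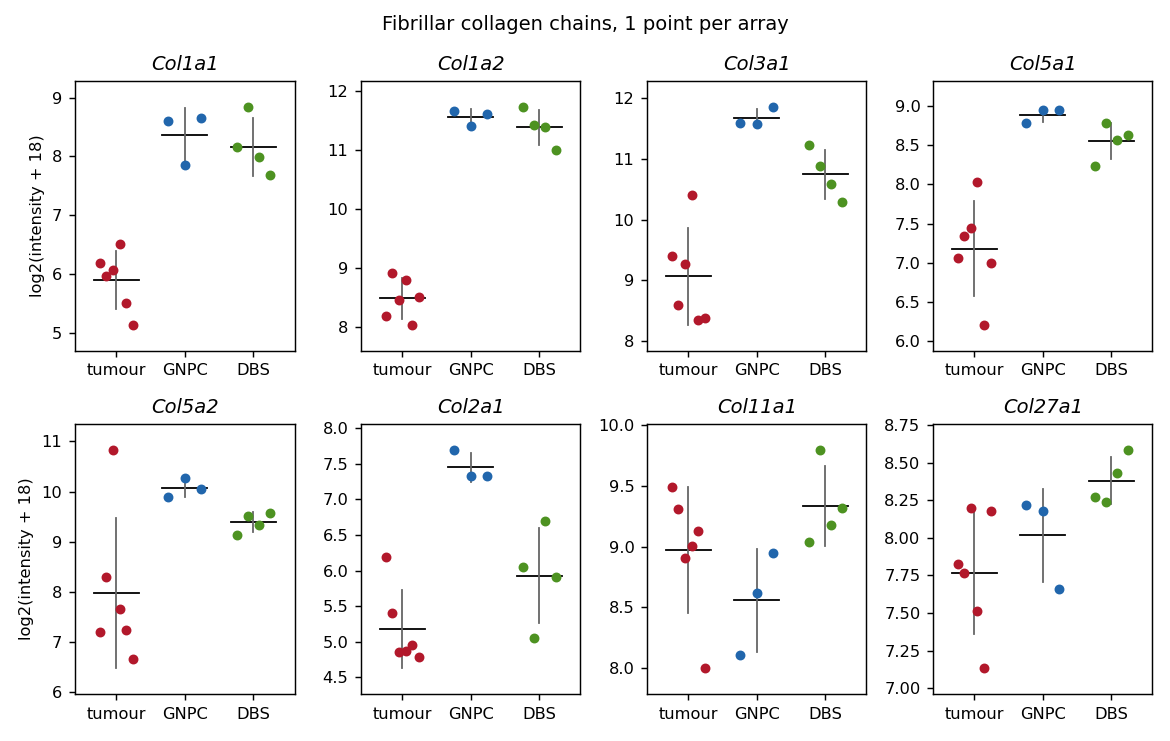
Level of 8 fibrillar collagen genes as log2(intensity + 18), 1 point per array in 6 tumours, 3 GNPC and 4 DBS, with horizontal lines at the group mean and vertical lines of 1 SD. The tumours lie below both tissues for Col1a1, Col1a2 and Col5a1, 1 tumour (tumour 3, 1793.1 intensity units) lies above all others for Col5a2, and the groups overlap for Col11a1.

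Type IV collagen forms the network of basement membranes, and its commonest trimer has alpha 1 and alpha 2 chains from neighbouring genes whose annotated starts lie 21 bases apart. These chains were lower in most tumours and close to normal in tumour 3. Col4a2 read 470.2, 241.3, 1140.1, 666.1, 234.9 and 278.9 in tumours 1 to 6. GNPC values were 1210.3, 1017.5 and 1074.1, and DBS values 1505.6, 1352.9, 1275.7 and 1138.7. Tumour 3 lay within the range of GNPC and of DBS, and the other 5 were below every normal sample. Col4a2 was 2.52-fold lower than in GNPC (log2 difference -1.33 ± 0.38, limma adjusted p = 0.01) and 3-fold lower than in DBS (-1.59 ± 0.35, adjusted p = 0.000929).

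Col4a1 was also highest in tumour 3, with 1096.9, 630.8, 3342.4, 1757.4, 675.5 and 743.4 in tumours 1 to 6. GNPC read 2209.1, 2140.7 and 2295.5, and DBS read 3313.4, 3176.1, 2524 and 3072.1. Tumour 3 was above every normal sample. Col4a1 was called lower than DBS (log2 difference -1.4 ± 0.37, limma adjusted p = 0.0032) and not lower than GNPC (-0.96 ± 0.4, adjusted p = 0.0592). Leaving out tumour 3 gave -1.27 ± 0.26 against GNPC (adjusted p = 0.00116), and leaving out tumour 4 gave -1.09 (adjusted p = 0.0405), both called. Across the 6 tumours Col4a1 and Col4a2 had a Pearson r of 0.99 (exact permutation p = 0.00278, adjusted p = 0.0222 over 8 pairs) and a Spearman rho of 0.94 (exact p = 0.0167, adjusted p = 0.0668). Without tumours 3 and 4, the farthest from the median, r was 0.99. Each point pairs both chains on 1 array, so they share that array's scaling and cell make-up.

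Col4a5, an X-linked chain of another type IV network, was lower as well. It read 146.7 to 474 in the tumours with a median of 226.5, against 633.7, 656.2 and 713.9 in GNPC and 524.8, 377, 420.3 and 584.4 in DBS. Tumour 3 had the highest tumour value, above 2 DBS samples and below all GNPC. The log2 difference was -1.47 ± 0.27 against GNPC (limma adjusted p = 0.000425). Against DBS it was -0.98 ± 0.25 (adjusted p = 0.00233), short of the fold required, and it passed without tumour 3 (-1.18), without DBS 2 (-1.08) or without DBS 3 (-1.03). A second Col4a5 probe set gave -0.77 and -0.48, not called. Col4a4 was called in no comparison (0.64 ± 0.46 against GNPC). Without tumour 3, 3 of the 5 basement membrane genes that passed were lower than GNPC in place of 2, and 3 were lower than DBS in place of 2.

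Col18a1 went the other way. Its product is a heparan sulphate collagen of basement membranes whose C-terminal fragment is endostatin. Tumours 1 to 6 read 759.4, 764, 1787, 857.2, 331 and 846.6. GNPC read 793.3, 697.9 and 889.7, and DBS read 308.7, 478.5, 236.2 and 246.5. Of the 6 tumours, 5 were above all DBS and tumour 5 lay within them, while tumours and GNPC overlapped. Col18a1 was 2.52-fold higher in tumours than in DBS (log2 difference 1.33 ± 0.33, limma adjusted p = 0.00213) and 2.5-fold higher in GNPC than in DBS (1.32 ± 0.39, adjusted p = 0.0129). Tumours against GNPC gave 0.01 ± 0.36 (adjusted p = 0.985). Its second probe set gave 1.38 (called), 0.9 (not called) and 0.48 for these comparisons in turn. The summed intensity of all 8 basement membrane genes was 1537 to 3676 in the 5 other tumours, 6945 in tumour 3, 4894 to 5170 in GNPC and 4713 to 5977 in DBS.

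**Figure D3:**
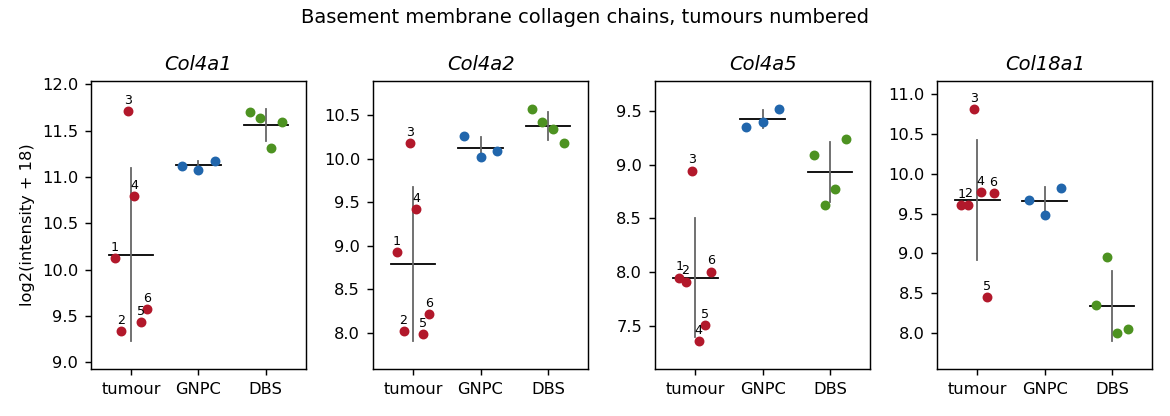
Level of 4 basement membrane collagen genes as log2(intensity + 18), 1 point per array, with tumours numbered, horizontal lines at the group mean and vertical lines of 1 SD. Tumour 3 is the highest tumour in each panel, with 3342.4 intensity units for Col4a1, and for Col18a1 the tumours and GNPC lie above most DBS samples.

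Among the other collagens, the tumours were lower than both tissues for Col19a1, Col23a1, Col26a1, Col6a2 and Col6a3. Col23a1, a transmembrane collagen, read 46.4 to 128.8 in the tumours with a median of 72. GNPC read 425.1, 499.3 and 516.9, and DBS read 276, 352.8, 313.4 and 402.1. No tumour overlapped either tissue, and the log2 difference was -2.48 ± 0.23 against GNPC (limma adjusted p = 1.8e-06) and -1.98 ± 0.21 against DBS (adjusted p = 8.83e-07). A second probe set was called in both (-2.23 and -1.66), and another in neither (-0.97 and -0.63). Col26a1, a secreted collagen with short helical stretches, read 11.3 to 47.2 in the tumours with a median of 30.3, then 207.9, 149.6 and 175 in GNPC and 446.1, 250.5, 524.8 and 353.2 in DBS. The 3 groups stood in steps without overlap. Tumours were lower than GNPC by a log2 difference of -2.05 ± 0.27 (adjusted p = 3.05e-05) and lower than DBS by -3.08 ± 0.25 (adjusted p = 4.27e-08), the latter -3.72 with a constant of 1 and -2.25 with 64.

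Col19a1, a fibril-associated collagen next to Col9a1 on chromosome 1, read 26.2 to 283.4 in the tumours with a median of 112.8. GNPC read 513.2, 477.8 and 488.4, and DBS read 343.9, 649.9, 392 and 412.2. Tumour 2 was the highest tumour and still below every normal sample. The log2 difference was -2.07 ± 0.41 against GNPC (limma adjusted p = 0.000864) and -1.9 ± 0.38 against DBS (adjusted p = 0.000394).

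Type VI collagen makes beaded filaments around cells from alpha 1, alpha 2 and alpha 3 chains. Col6a3 read 69 to 212.4 in the tumours with a median of 110.2. GNPC read 524.4, 389.1 and 403.7, and DBS read 625.9, 537.3, 550.1 and 623.3. The groups did not overlap, and the log2 difference was -1.79 ± 0.27 against GNPC (limma adjusted p = 0.000101) and -2.2 ± 0.25 against DBS (adjusted p = 1.72e-06). Col6a2 read 33.1 to 200.8 in the tumours with a median of 125.1, beside 326.4, 337 and 393.9 in GNPC and 426.4, 420.7, 405.2 and 307.8 in DBS. It was lower by -1.48 ± 0.35 (adjusted p = 0.00291) and -1.62 ± 0.32 (adjusted p = 0.00038), and its second probe set gave -0.55 and -0.86, not called. Col6a1, next to Col6a2 on chromosome 10, read 130.2 to 459.6 in the tumours, 455.9, 398.7 and 480.6 in GNPC and 356.8, 212.9, 295.9 and 218.8 in DBS. It was not called (-0.95 ± 0.32 against GNPC, -0.25 ± 0.29 against DBS), but the first was called without tumour 1 (-1.15), tumour 6 (-1.05) or GNPC 2 (-1.03). Across the tumours Col6a1 and Col6a2 had r = 0.84 (exact permutation p = 0.0264, adjusted p = 0.106) and rho = 0.94 (exact p = 0.0167, adjusted p = 0.0668). Without tumours 1 and 6, r was 0.74. The 6 other pairs of partner chains gave r from -0.35 to 0.5, with adjusted p from 0.649 to 0.789 by the exact permutation test.

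A group of chains separated DBS from both the tumours and GNPC. Col25a1, a transmembrane collagen of neurons, read 1014.5, 1533.5, 1046.8 and 1217.9 in DBS and 334, 65.2 and 116.3 in GNPC. Tumours read 22.2 to 849.3 with a median of 78.8, the highest being tumour 3. DBS stood above all other samples, with a log2 difference of -3.36 ± 0.66 for tumours (limma adjusted p = 0.000327, and -3.94 without tumour 3) and -2.93 ± 0.78 for GNPC (adjusted p = 0.00688). Col14a1, a fibril-associated collagen, read 291, 377.1, 397.5 and 432.9 in DBS, 61.7, 92.9 and 75.8 in GNPC and 23.3 to 53.6 in tumours, with a median of 38.2. Here all 3 groups were apart. Col14a1 was lower than DBS in tumours (-2.82 ± 0.2, adjusted p = 1.14e-08) and in GNPC (-2.05 ± 0.24, adjusted p = 1.03e-05), and between tumours and GNPC the difference of -0.77 ± 0.22 fell short of the required fold. Col14a1 could not have passed the filter without the DBS arrays, so a high level there was a condition for testing it.

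Col8a1, a short-chain network collagen, read 589.8, 413.5, 334.9 and 453.1 in DBS and 37.3 to 118.9 in tumours, with a median of 60.6. GNPC 2 read 479.4 and the other GNPC 66.7 and 35.7. Tumours lay below DBS without overlap (log2 difference -2.45 ± 0.48, limma adjusted p = 0.000353), and 2 of the 3 GNPC did too. The call of lower Col8a1 in GNPC than in DBS (-1.8 ± 0.57, adjusted p = 0.0191) ended without GNPC 1 (-1.48, adjusted p = 0.0848) or GNPC 3 (-1.15, adjusted p = 0.124). Without GNPC 2 it was -2.76. Col26a1 was also lower in GNPC than in DBS (-1.04 ± 0.29, adjusted p = 0.01), and that call ended without GNPC 2 (-0.93), DBS 1 (-0.96) or DBS 3 (-0.89).

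A different group of chains was higher in GNPC. Col9a1, a chain of the fibril-associated type IX collagen, read 653.5, 694.4 and 679.9 in GNPC, 339.8, 261.9, 205 and 323.2 in DBS and 180 to 415.2 in tumours, with a median of 208. GNPC was above all other samples, and tumours and DBS overlapped. The log2 difference was -1.43 ± 0.25 for tumours against GNPC (limma adjusted p = 0.000271) and 1.23 ± 0.27 for GNPC against DBS (adjusted p = 0.00179), which was 0.65 and not called with a second probe set. Its partner Col9a3 read 985.7, 969.2 and 948 in GNPC, 466, 223.3, 389.5 and 396.8 in DBS and 348.5 to 824.1 in tumours, with a median of 670.8. Most tumours lay between the tissues. GNPC exceeded DBS (1.39 ± 0.26, adjusted p = 0.00068), and the tumours were called different from neither tissue (-0.66 ± 0.24 and 0.74 ± 0.22). Col13a1, a transmembrane collagen of cell junctions, read 122.1, 151.8 and 145.9 in GNPC, 51, 47.3, 21.3 and 59.8 in DBS and 30.5 to 55.7 in tumours, with a median of 42. GNPC again stood alone, with -1.4 ± 0.26 for tumours against GNPC (adjusted p = 0.000456) and 1.37 ± 0.28 for GNPC against DBS (adjusted p = 0.00115). With a constant of 64 these were -0.94 and 0.92, and neither was called. Col13a1 passed the filter only through the 3 GNPC arrays, so a high level there was a condition for testing it.

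**Figure D4:**
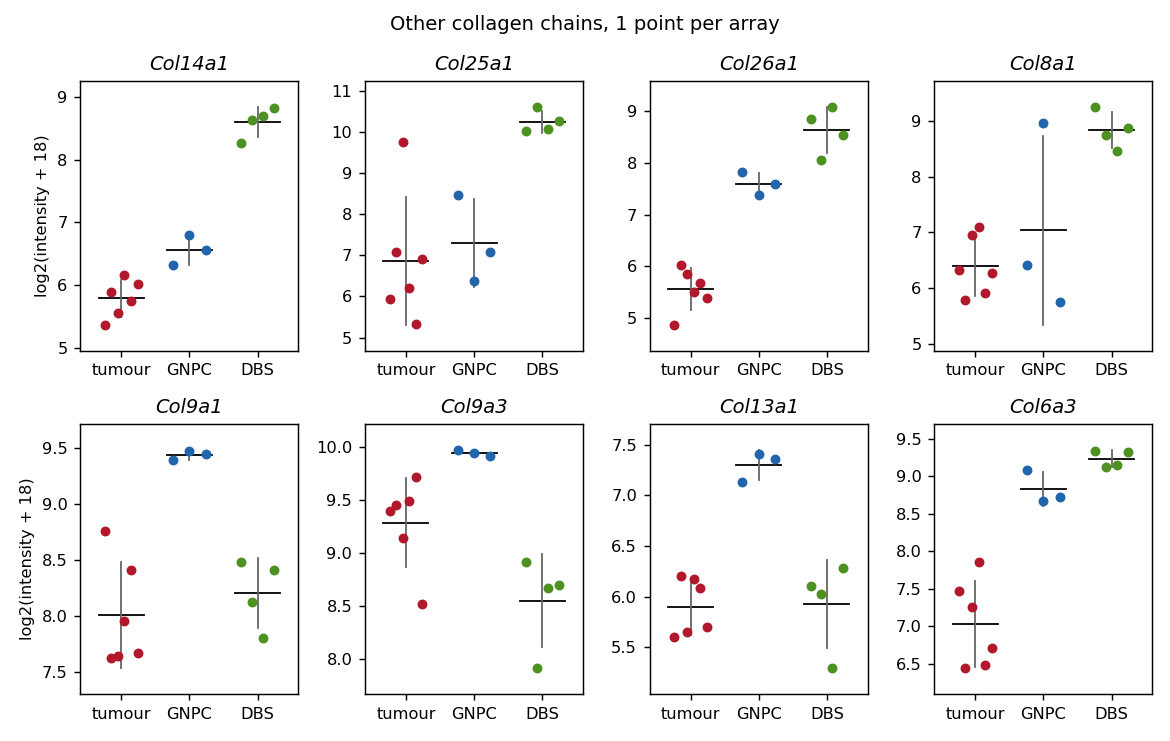
Level of 8 collagen genes outside the fibrillar and basement membrane classes as log2(intensity + 18), 1 point per array, with horizontal lines at the group mean and vertical lines of 1 SD. DBS is highest for Col14a1, Col25a1 and Col26a1, GNPC is highest for Col9a1, Col9a3 and Col13a1, and GNPC 2 (479.4 intensity units) stands apart from the other GNPC for Col8a1.

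Between the normal tissues, which differ in both age and region, the collagens did not move one way. Of the 27 genes that passed the filter, 5 were higher in GNPC (Col2a1, Col18a1, Col9a1, Col9a3 and Col13a1) and 4 higher in DBS (Col14a1, Col25a1, Col26a1 and Col8a1), beside 8.73% and 9.68% of all genes tested. The median log2 difference was 0.17, and 0.04 over all genes. With no filter 9 of the 42 were called, beside 13.7% of all genes. Arrays of GNPC and DBS did not overlap for 17 of the 27, beside 55.9% of all genes, and 11 of the 44 probe sets were called, beside 17.2%. Col3a1, with 3 GNPC samples above all 4 DBS, gave 0.93 ± 0.4 and was not called (limma adjusted p = 0.0723).

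Of the 42 genes, 15 had no probe set past the filter, and 168.8 was the highest value of any of their probe sets. They included the fibrillar chains Col11a2 and Col24a1, the basement membrane chains Col4a3, Col4a6 and Col15a1, and 10 others. Col15a1, the relative of Col18a1 in vessel walls, read 43.9 to 62.9 in tumours, 103.8, 168.8 and 72.4 in GNPC and 68.3, 73.5, 85.3 and 64.2 in DBS. No tumour reached a normal sample, but the log2 difference of -0.88 ± 0.23 against GNPC was short of the required fold. In the fit with no filter, Col24a1 (-1.45 ± 0.36, limma adjusted p = 0.00308) and Col9a2 (-1.23 ± 0.39, adjusted p = 0.0151) were called lower in tumours than in DBS, at tumour means of 16.3 and 10.8 intensity units.

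Spread among tumours was wide for several chains. The SD of log2(intensity + 18) over the 6 tumours was 1.55 for Col25a1 and 1.5 for Col5a2, both at the 99th percentile of all genes tested. It was 1.04 for Col16a1, 0.93 for Col4a1, 0.89 for Col4a2 and 0.8 for Col3a1, at the 98th, 97th, 96th and 95th percentiles, and the median gene had 0.27. Col16a1, a fibril-associated chain, ran from 43.7 in tumour 4 to 491.3 in tumour 1 and was called in no comparison. Tumour 3 was the highest tumour for Col4a1, Col4a2, Col4a5, Col18a1, Col5a2 and Col25a1. Its pericyte and smooth muscle sum was 9026, its endothelial sum 5090 and its skeletal muscle sum 649, against at most 6014, 3596 and 167 in the other tumours. The part of these cells in its collagen values was not tested.

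A measure of RNA quality differed between tumours and GNPC. The log2 ratio of 3′ to 5′ control signal was 1.33 to 1.59 in tumours and 1.11 to 1.19 in GNPC, a difference of 0.23 (two-sided exact permutation p = 0.0119, adjusted p = 0.0357 over 3 comparisons). Against DBS, at 1.23 to 2.43, the tumours gave -0.36 (exact permutation p = 0.0952, adjusted p = 0.0952), and GNPC against DBS gave -0.59 (exact p = 0.0571, adjusted p = 0.0856), with DBS 2 at 2.43 and the other DBS at 1.23 to 1.7. Its part in the collagen values was not tested. Of the collagen genes, 27 had several probe sets, and 0 of those called had probe sets called in opposite directions.

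Genes that modify, process, bind, degrade or sense collagen were read from a list of 81, of which 75 were on the array and 58 passed the filter. In tumours 21 were lower and 4 higher than in GNPC, and 16 were lower and 5 higher than in DBS, against the shares of all genes given above. Their medians were -0.56 and -0.41. GNPC exceeded DBS for 11 and fell below it for 3, beside 8.73% and 9.68% of all genes tested.

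Of 16 enzymes and chaperones of the endoplasmic reticulum that passed, 1 was called between tumours and GNPC, lower in tumours, beside 14.2% of all genes called lower and 6.59% higher. Between tumours and DBS 2 were lower and 2 higher, beside 20.9% and 15.5%. P4ha2, a prolyl hydroxylase subunit, was lower by a log2 difference of -1.6 ± 0.36 against GNPC (limma adjusted p = 0.00188) and -2.34 ± 0.32 against DBS (adjusted p = 1.37e-05). Fkbp7, a prolyl isomerase, was higher than in DBS (1.28 ± 0.19, adjusted p = 2.96e-05). Serpinh1, the collagen chaperone HSP47, read 327.8 to 1760.5 in tumours, 1274.5, 1607.2 and 1475.2 in GNPC and 806.4, 351.6, 410.5 and 458.9 in DBS. Tumours spanned both tissues and were called different from neither (-0.65 ± 0.44 and 0.9 ± 0.4), while GNPC exceeded DBS (1.55 ± 0.47, adjusted p = 0.0157). Of the 3 secretion genes that passed, 0 were called in either tumour comparison. At an unadjusted limma p under 0.05, with no fold minimum, they numbered 2 against GNPC and 3 against DBS, all lower. The share of all genes at that threshold is not given here. At an adjusted p under 0.05 with no fold minimum, 6061 of all 12270 genes were called against GNPC and 8642 against DBS, in either direction. The secretion counts are therefore not read as a result about these genes.

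Of 8 genes of propeptide cleavage and crosslinking that passed, 4 were lower and 1 higher in tumours than in GNPC, and 3 were lower and 1 higher than in DBS, beside 14.2% lower and 6.59% higher, and 20.9% lower and 15.5% higher, of all genes. Adamts3, a protease that trims the N-propeptide of fibrillar procollagens, read 39.3 to 81.4 in tumours with GNPC at 753.8, 846 and 961.8 and DBS at 580.3, 658.1, 596.9 and 574.3. No tumour came close to a normal sample, and the log2 difference was -3.56 ± 0.19 against GNPC (limma adjusted p = 2.12e-08) and -3.07 ± 0.17 against DBS (adjusted p = 1.11e-09). Lox, the crosslinking lysyl oxidase, was lower in both (-1.9 ± 0.24, adjusted p = 2.27e-05, and -1.69 ± 0.22, adjusted p = 7.36e-06). Its relative Loxl1 was higher, by 1.06 ± 0.36 against GNPC (adjusted p = 0.0255) and 2.87 ± 0.33 against DBS (adjusted p = 2.08e-06), and the first call ended without tumour 3 (0.83). Between the normal tissues, Pcolce2, an enhancer of procollagen C-proteinase, was higher in GNPC (2.02 ± 0.61, adjusted p = 0.0146) and the peroxidasin gene Pxdn, whose product crosslinks type IV collagen, was lower (-1.65 ± 0.21, adjusted p = 2.06e-05).

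Fibril binders were lower in tumours than in GNPC for 5 of the 7 that passed and lower than in DBS for 3, beside 14.2% and 20.9% of all genes. The proteoglycan gene Ogn gave -3.38 ± 0.41 (limma adjusted p = 1.5e-05) and -2.3 ± 0.37 (adjusted p = 6.23e-05). GNPC exceeded DBS for 3 binders, beside 8.73% of all genes, with Sparc (1.12 ± 0.22, adjusted p = 0.00102) and Lum (1.12 ± 0.3, adjusted p = 0.00666) among them. Of the turnover genes, Ctsk, which encodes cathepsin K, was lower in tumours than in GNPC (-1.7 ± 0.24, adjusted p = 5.07e-05), and the protease inhibitor Timp1 was higher than in both tissues (1.02 ± 0.23, adjusted p = 0.0019, and 2.1 ± 0.21, adjusted p = 3.99e-07). Timp2 was lower than in DBS (-2.42 ± 0.23, adjusted p = 2.66e-07). Mmp14, a membrane collagenase, was called in neither tumour comparison (-0.01 ± 0.36 and 0.61 ± 0.33).

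Ddr2, a receptor tyrosine kinase that binds fibrillar collagen, was higher in tumours, opposite to type I and III collagen. It read 1860.5 to 2605.9 in tumours with a median of 2331.9, 505.8, 521.6 and 567 in GNPC and 137, 120.3, 158.5 and 172.4 in DBS. The 3 groups were widely apart, with log2 differences of 2.05 ± 0.14 against GNPC (limma adjusted p = 1.42e-07), 3.79 ± 0.12 against DBS (adjusted p = 8.4e-12) and 1.74 ± 0.15 between GNPC and DBS (adjusted p = 5.66e-07). Of the integrins that bind collagen, Itga1 was lower than in GNPC (-1.47 ± 0.48, adjusted p = 0.0209) and its partner Itgb1 was not called (0.13 ± 0.18, and 0.73 ± 0.16 against DBS). Without tumour 3, Itga1 was also called lower than DBS (-1.09).

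Partners of type IV collagen in the basement membrane followed it in part. Of 11 that passed, 6 were lower and 1 higher in tumours than in GNPC, beside 14.2% and 6.59% of all genes. Against DBS 6 were lower, beside 20.9% of all genes. Nid1, the nidogen that links laminin to type IV collagen, was lower by -2.77 ± 0.33 (limma adjusted p = 1.22e-05) and -1.81 ± 0.3 (adjusted p = 7.5e-05). Agrn, which encodes agrin, was lower than in DBS (-2.6 ± 0.18, adjusted p = 8.63e-09) and was also lower in GNPC than in DBS (-1.55 ± 0.21, adjusted p = 4.58e-05). The laminin chain Lama5 was higher than in GNPC (1.13 ± 0.33, adjusted p = 0.0099), and that call ended without tumour 3 (0.94).

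**Figure D5:**
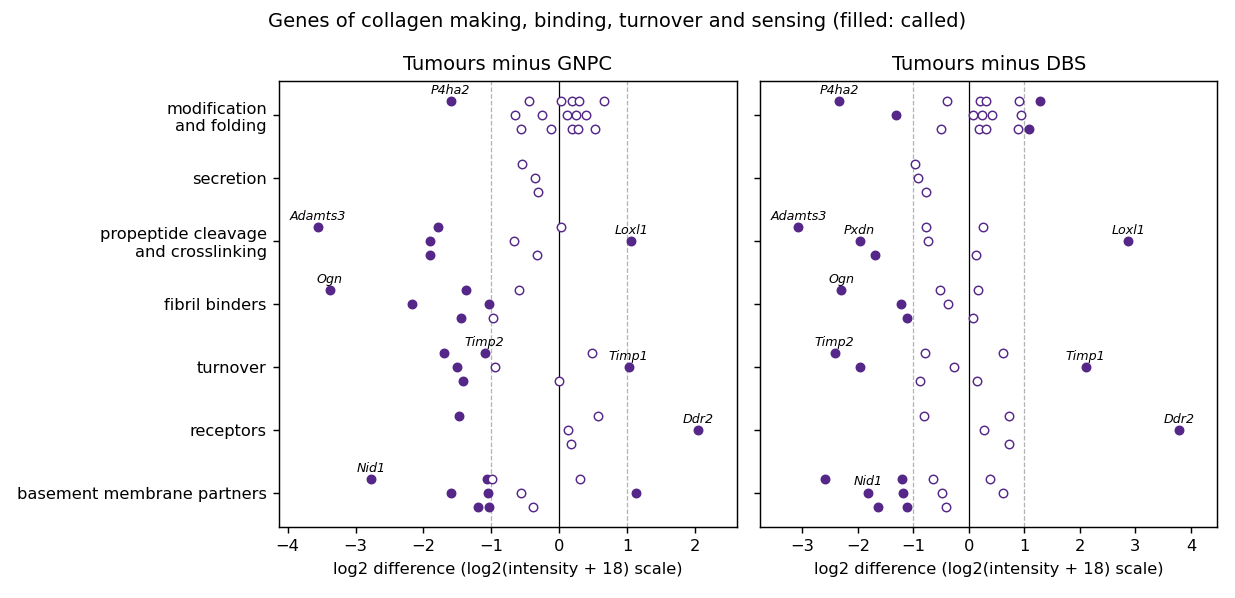
Log2 differences on the log2(intensity + 18) scale for the 58 genes of collagen making, processing, binding, turnover, sensing and basement membranes that passed the filter, by role, tumours minus GNPC at left and tumours minus DBS at right. Filled points are called and dashed lines mark a log2 difference of 1. Adamts3 lies farthest left in the GNPC panel at -3.56 and Ddr2 farthest right in both, at 2.05 and 3.79.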

How the data were processed

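RNA of 6 Ptch1 tumours, 3 GNPC and 4 DBS samples was measured on 1 array each, and the source names in the labels gave the groups. The deposited values are linear intensities, and the submitters' processing notes name MAS5 with no role or version. In the deposited table every column averages 500 once 2% is trimmed from either end, so scaling was global. Detection calls were not used here. The labels give no batch, so a batch cannot be told apart from a group. Precision is limited by how many arrays there are.

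Of 45037 probe sets that are not controls, those with 1 symbol were kept if 3 or more of the 13 arrays had them above that array's median, and the probe set with the highest mean stood for each gene (12270 genes). One limma model (limma 3.58.1, R 4.3.3; lmFit, eBayes with trend, 10 residual and 4.5 prior degrees of freedom) was fitted to log2(intensity + 18), 18 being the 20th percentile of values, with Benjamini-Hochberg adjustment over all 12270 genes. Genes were called at adjusted p under 0.05 and a log2 difference of at least 1. The fit was tested on simulated data. Alternatives changed the constant, filter, scaling, probe set choice, trend, weights and groups fitted, and left out each sample in turn. Values were named for every collagen gene called in a comparison, for partner chains, and for the largest called rise and fall of each list, with Serpinh1, Lox, Mmp14 and Itgb1. The members and lists were chosen with earlier results of these data known. Leaving out tumour 3 for the listed genes was an alternative chosen after seeing the data. Promoter windows came from RefSeq tables on GRCm38.p6.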

Additional observations from a re-analysis of the deposited data

Results flagged for a closer look

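Col5a3 was low in tumour 5, at 90.3 intensity units against 150.1 to 180.1 in the other 5 tumours, with the gap to the nearest tumour taking 0.73 of the whole range on the log2(intensity + 18) scale. Col6a2 was low in DBS 4, at 307.8 against 405.2 to 426.4 in the other 3 DBS samples, a gap of 0.84 of the range. DBS 4 was also the sample with the highest skeletal muscle marker sum, at 2290, and the part of that in its Col6a2 value was not tested. These were 2 of 54 sets of 1 gene in 1 group examined for a sample far from the others, and chance flags about 1 in 20 such sets.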

How the results depend on the processing

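Of 40 called differences of a collagen gene in a comparison, 34 stayed called in the same direction under every alternative that tested the gene, and 0 of 81 reversed. Col2a1 did not pass the stricter filter, so its calls were not tried there. The fit of every probe set on its own was not part of this count. The 6 that lost their call under some alternative were Col5a2 between tumours and DBS (log2 difference -1.98 to -1.15), Col13a1 in both of its comparisons and Col26a1, Col8a1 and Col9a1 between GNPC and DBS. Col9a1 fell to 0.94 with the mean of its probe sets. Another 8 gained a call under some alternative. Called collagen genes numbered 13 to 18 for tumours against GNPC, 15 to 19 for tumours against DBS and 7 to 9 for GNPC against DBS. Leaving out 1 sample at a time gave 15 to 16, 15 to 17 and 8 to 9. Counted as probe sets, 22, 26 and 11 were called, beside 18.5%, 34.7% and 17.2% of all probe sets. Setting every array to the same median moved the median of all genes to 0.21 for tumours against GNPC and 0.12 for tumours against DBS, and the share of all calls that were higher in tumours than in GNPC from 31.7% to 48.8%, while the collagen genes called higher there stayed at 0. That share was 37.9% for GNPC against DBS. With no fold minimum, 6061, 8642 and 5414 of all genes were called. No paired analysis was possible because the labels give no replicate numbers and those used here only name samples. Dim probe sets limit the sizes given for Col1a1, Col2a1, Col13a1, Col14a1 and Col26a1, for which the added constant sets part of the value.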
